A study of Mus musculus with 12 samples.

Results

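Keratins are the intermediate filament proteins of epithelial cells. A type I keratin, most of which are encoded in a cluster on mouse chromosome 11, pairs with a type II keratin, encoded in a cluster on chromosome 15. Simple epithelia such as the uterine lining carry Krt8 with Krt18 and Krt19, stratified epithelia carry Krt5 with Krt14 in the basal layer and other pairs above it, and the hair keratins build the hard shaft of hair and nail. The genes described here are all those on the array whose name in the files, or whose current symbol, is Krt followed directly by a digit. There were 46 of them among 27669 names on the array, measured by 54 of 41174 probes, and 28 of the 46 (33 probes) passed the filter on dim probes, out of 19304 genes tested.

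The data are single-colour array measurements of whole uterus from 12 mice, 1 mouse per array, in 4 groups of 3: EAAE mice given estradiol (E2), EAAE mice given saline, wild-type (WT) mice given E2, and WT mice given saline. EAAE mice carry, per the series title, an estrogen receptor alpha that is deficient in DNA binding; WT mice carry the normal receptor gene Esr1. All were females of C57bl6/Jx129 background, at least 10 weeks old, ovariectomized and rested for 10 to 14 days, and their uteri were taken 2 h after an injection of 100 ul (E2 dose not stated in the labels). The comparisons ask which early transcript responses to E2 differ between the 2 genotypes, and how the genotypes differ before hormone. Whether a response needs DNA binding by the receptor was not tested apart from the differences already present under saline.

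By class, the array held 12 hair keratins (7 passed the filter), 5 simple epithelial keratins (5 passed), 17 stratified epithelial keratins (12 passed), 6 keratins of the inner root sheath and companion layer of the hair follicle (1 passed) and 6 others (3 passed). A gene passed if a probe of it was well above background on every array of at least 1 group. The 18 that did not pass were Krt31, Krt33a, Krt33b, Krt34 and Krt82 among hair keratins, Krt25, Krt26, Krt27, Krt28 and Krt71 of the inner root sheath, the stratified keratins Krt6a, Krt6b, Krt9, Krt76 and Krt78, and Krt42, Krt90 and Krt222. Of these, Krt76, a keratin of the oral palate, was above background on 2 of 3 WT E2 arrays and on no array of the other groups.

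Levels are given as log2 intensity relative to the 75th percentile of the same array, so that 0 is the level of a well expressed probe and negative values lie below it. Levels of different genes come from different probes and are not set against each other. Probes well above background reached down to between -6.14 and -5.14, depending on the array. Over the 19304 genes tested, each by its brightest probe, Pearson's r was 0.9825 to 0.9935 within groups and 0.9184 to 0.9883 between them. On each array, 64.0 to 74.0% of spots were well above background. Esr1 was above background on all 12 arrays with both of its probes. Its brighter probe was higher in EAAE, at 3.22, 3.42 and 3.42 in EAAE saline against 2.84, 3.02 and 3.01 in WT saline uteri (log2 difference 0.40, adjusted p = 0.00962), while the dimmer probe was lower, at -2.55, -2.59 and -2.44 against -2.25, -2.17 and -2.28. All 15 markers of uterine epithelium, all 8 of smooth muscle and all 10 of stroma were above background on every array. Of 17 skin and hair follicle markers on the array, 8 were above background on all arrays of each group. Another 8 to 9, depending on the group, were above background on no array of it. This list includes keratins described here, among them Krt1, Krt5, Krt10 and Krt14, and is no separate measure of them.

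The 3 hair keratins that responded most are shown by the probes that measured them, because 2 of these probes overlap in sequence. Each probe has 60 bases and lies on chromosome 15 in the mm7 build of the files, with Krt87 at chr15:101419766-101419825, Krt86 at chr15:101463017-101463076 and Krt85 at chr15:101502722-101502781. Capitals mark the 20 bases that the last stretch of the Krt86 probe and the first stretch of the Krt87 probe have in common.
Krt87: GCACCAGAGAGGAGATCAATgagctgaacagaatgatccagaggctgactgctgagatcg
Krt86: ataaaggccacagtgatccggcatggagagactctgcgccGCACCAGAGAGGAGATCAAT
Krt85: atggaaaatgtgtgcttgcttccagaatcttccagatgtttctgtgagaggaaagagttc
Among 1431 pairs of keratin probes, the next longest shared run was 13 bases, and the Krt85 probe shared at most 7 with either of the others. The files also assign 3 accessions to both the Krt86 and the Krt87 probe. The values of Krt86 and Krt87 may therefore come partly from the same transcripts, and they are given as uncertain as to which of the 2 genes they measure.

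In WT uteri, the probes of 3 type II hair keratins of the chromosome 15 cluster rose after E2 to above the array's 75th percentile. Those of Krt86 and Krt87 may measure the same transcripts. In EAAE uteri, all 3 probes were at or near background with and without E2. Krt85, a type II keratin of the hair matrix and cortex, measured -7.69, -7.77 and -7.56 in EAAE E2 uteri and -7.94, -7.15 and -7.84 in EAAE saline uteri. It measured 4.20, 4.32 and 4.04 in WT E2 uteri, against -6.71, -6.19 and -5.88 in WT saline uteri. No array outside the WT E2 group was well above background for Krt85, so only an approximate bound is given, with the adjusted p of the fitted difference. Krt85 was at least 1074.9-fold higher after E2 in WT (adjusted p = 2.88e-09), and at least 790.2-fold lower in EAAE E2 than in WT E2 uteri (adjusted p = 7.92e-10). In whole uterus, a different number of cells of a type and a different amount of RNA per cell cannot be told apart, here and in the results that follow.

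The probe for Krt87, a hair keratin in the same stretch of the cluster, measured -5.67, -4.98 and -5.27 in EAAE E2 and -5.58, -5.62 and -5.56 in EAAE saline uteri. In WT E2 uteri it measured 3.19, 3.18 and 3.16, against -5.78, -5.63 and -5.23 in WT saline uteri. The E2 and saline values of WT were far apart, and those of EAAE overlapped. The probe for Krt86, a hair cortex keratin, gave -5.91, -4.89 and -5.64 in EAAE E2, -5.72, -5.11 and -5.56 in EAAE saline, 3.12, 3.18 and 3.09 in WT E2, and -5.72, -4.78 and -5.14 in WT saline uteri. Both probes were well above background on 2 of 3 WT saline arrays, so that the dim side of these differences lies at the edge of detection. The fitted log2 differences in WT were 8.72 ± 0.17 for Krt87 (SE, adjusted p = 2.49e-09) and 8.34 ± 0.29 for Krt86 (SE, adjusted p = 3.64e-08). After E2, EAAE minus WT was -8.49 for Krt87 (adjusted p = 8.23e-10) and -8.61 for Krt86 (adjusted p = 1.24e-08).

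**Figure D1:**
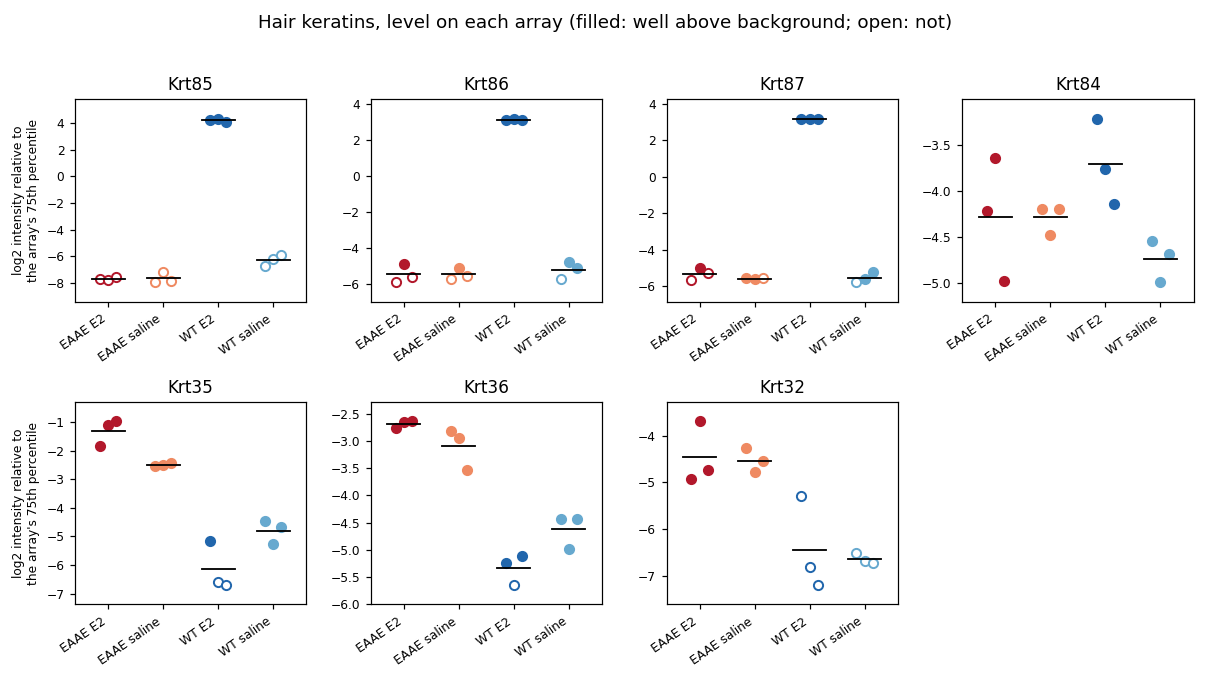
Log2 intensity relative to the array's 75th percentile (y axis, a scale of its own in each panel) of the 7 hair keratins that passed the filter, on each of the 12 arrays by group (x axis). Filled points were well above background, open points were not, and black lines are group means of 3 mice. Krt85, Krt86 and Krt87 are above 3 in the WT E2 group and below -4 in the other groups, while Krt35, Krt36 and Krt32 are higher in both EAAE groups than in both WT groups.

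Over all classes, 7 keratins rose and 4 fell of the 28 tested in WT after E2, beside a background of 19.5% of all tested genes higher and 29.9% lower. Those that rose were Krt85, Krt86, Krt87, Krt84, Krt4, Krt23 and Krt7, and those that fell were Krt35, Krt36, Krt20 and Krt14. By class, 4 of 7 hair keratins rose and 2 fell (median log2 difference 1.03), 1 of 5 simple keratins rose and 1 fell (median -0.15), and 1 of 12 stratified keratins rose and 1 fell (median -0.30), beside a median of -0.15 over all tested genes. Krt85, Krt86, Krt87 and Krt4 passed the filter only through the WT E2 group, where they were high. The counts of risers by class therefore depend on the filter. Of the 17 keratins above background on all 12 arrays, which exclude these, 3 rose and 2 fell. Krt86 and Krt87 are counted as 2 genes here and below, although their probes may measure the same transcripts. With each array scaled to its median instead, the median over all genes moved to -0.011, and the split of calls over all genes, 3756 higher and 5775 lower, became 4537 higher and 3941 lower. It became 127 and 75 in place of 133 and 138 in EAAE, and 3104 and 3129 in place of 4384 and 2863 for the difference between the responses. The class medians kept their sign under that scaling and under quantile scaling with and without normexp background correction.

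In EAAE uteri, 1 keratin rose and 0 fell after E2, beside backgrounds of 0.689% and 0.715%. The hair keratins had a median of 0.08 in EAAE, with 0 of 7 called, the simple ones 0.13 with 1 of 5 higher, and the stratified ones -0.64 with 0 of 12 called, beside 0.03 over all genes. At an unadjusted p under 0.05, the limma fit put Krt35, Krt20, Krt80, Krt5 and Krt15 past the threshold in EAAE. Of these, only Krt20 was called, and the adjusted p of the others was 0.0808 to 0.221. The share of all tested genes past the unadjusted threshold was not counted, so this list is not read as a response. The difference between the responses, EAAE minus WT, was called for 10 keratins: it was positive for 3 (Krt20, Krt35, Krt36; background 22.7%) and negative for 7 (Krt85, Krt86, Krt87, Krt4, Krt23, Krt7, Krt80; background 14.8%). The 2 responses and their difference use the same arrays.

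**Figure D2:**
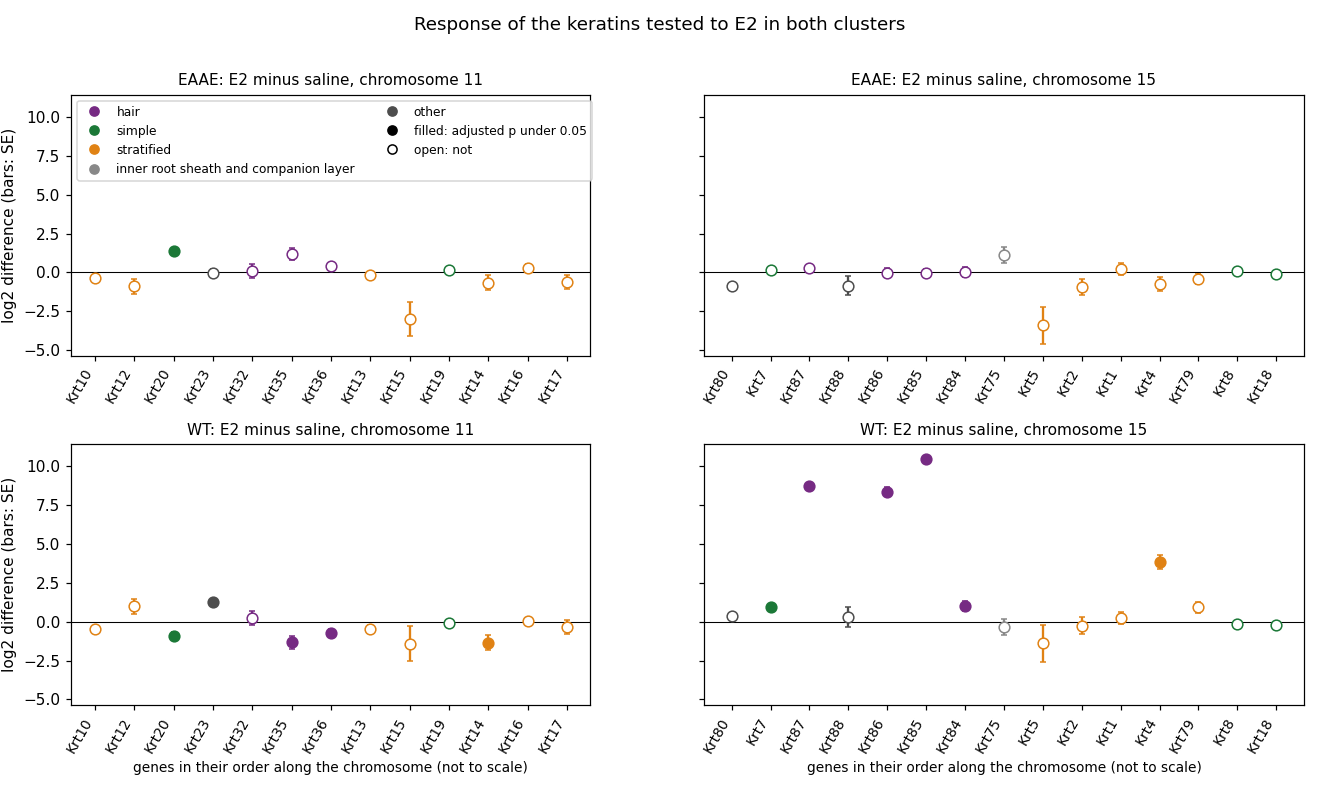
Log2 difference, E2 minus saline (y axis, points with SE bars), of the 28 keratins tested, in EAAE uteri (top) and WT uteri (bottom), with genes in their order along chromosomes 11 and 15 (x axis, not to scale). Colours mark the class and filled points an adjusted p under 0.05. The points above 8 are Krt87, Krt86 and Krt85 in WT, which lie close together on chromosome 15 with Krt88 between Krt87 and Krt86, and the same genes lie within 0.3 of 0 in EAAE.

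The hair keratins split by cluster. The 4 tested hair keratins of the chromosome 15 cluster, Krt84 to Krt87, whose probes span 91.7 kb, rose in WT after E2, whereas of the 3 of the chromosome 11 cluster, whose probes span 21.3 kb, 2 fell and Krt32 was not called. This grouping by cluster was made after the values were seen. Krt85, Krt86 and Krt87 passed the filter only through the WT E2 group, and the probes of Krt86 and Krt87 may measure the same transcripts. Krt84, a type II keratin of tongue papillae and hair cuticle, measured -4.22, -3.65 and -4.98 in EAAE E2, -4.20, -4.48 and -4.20 in EAAE saline, -3.22, -3.76 and -4.14 in WT E2 and -4.54, -4.99 and -4.69 in WT saline uteri. Its rise in WT was a log2 difference of 1.03 ± 0.32 (SE, adjusted p = 0.0204), and the call was lost when WT saline 2 or WT E2 1 was left out and with slide and position in the fit. Krt82, another hair keratin of chromosome 15, was above background on no array.

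Krt35 and Krt36, type I hair keratins, responded to E2 differently in the 2 genotypes. Krt35 measured -1.83, -1.12 and -0.98 in EAAE E2 uteri, against -2.54, -2.52 and -2.43 in EAAE saline uteri. It measured -5.15, -6.58 and -6.69 in WT E2 uteri, against -4.46, -5.25 and -4.69 in WT saline uteri. The EAAE groups did not overlap with each other or with the WT groups, while the WT groups overlapped with each other. The 2 lowest WT E2 values were not above background. The log2 difference was 1.18 ± 0.39 in EAAE (SE, adjusted p = 0.168) and -1.34 ± 0.39 in WT (SE, adjusted p = 0.0152), and the responses differed by 2.52 ± 0.55 (SE, adjusted p = 0.00513). The fall in WT was lost without WT saline 1, WT E2 2 or WT E2 3, with position or slide and position in the fit, and with normexp background and quantile scaling (-0.32, adjusted p = 0.193). The difference between the responses was called under every alternative run.

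Krt36 measured -2.77, -2.65 and -2.64 in EAAE E2, -2.81, -2.94 and -3.54 in EAAE saline, -5.25, -5.64 and -5.12 in WT E2 and -4.44, -4.99 and -4.43 in WT saline uteri. It fell by 0.72 on the log2 scale in WT (adjusted p = 0.0189) and its difference in EAAE was 0.41 (adjusted p = 0.382). The responses differed by 1.13 ± 0.31 (SE, adjusted p = 0.0156), and its second probe gave 0.98 (adjusted p = 0.0343 with every probe tested on its own). The fall in WT was lost without WT saline 1, WT saline 3 or WT E2 2, with position or slide and position in the fit, and under quantile scaling without (-0.48) and with normexp background (-0.22, adjusted p = 0.242). The difference between the responses was lost with normexp background and quantile scaling (adjusted p = 0.0795). Krt32, a type I keratin of the hair cuticle, was above background on all 6 EAAE arrays and on no WT array. It measured -4.93, -3.69 and -4.73 in EAAE E2, -4.27, -4.77 and -4.54 in EAAE saline, -5.30, -6.82 and -7.19 in WT E2 and -6.52, -6.68 and -6.73 in WT saline uteri.

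These 3 genes were higher in EAAE than in WT uteri before hormone. Under saline, the log2 difference was 2.31 ± 0.39 for Krt35 (SE, adjusted p = 0.00157) and 1.52 ± 0.22 for Krt36 (SE, adjusted p = 5.84e-04), and Krt32 was at least 2.6-fold higher (adjusted p = 0.00587). After E2, it was 4.83 ± 0.39 for Krt35 (SE, adjusted p = 2.72e-06) and 2.65 ± 0.22 for Krt36 (SE, adjusted p = 3.08e-06), and Krt32 was at least 1.9-fold higher (adjusted p = 0.00328). All 3 calls under saline were lost when slide and position on the slide both entered the fit, with values of 2.35 for Krt35, 1.71 for Krt36 and 1.78 for Krt32, and all 3 after E2 were kept. Every EAAE E2 array lay at the same position of its slide, so position and group are partly the same. Within the 1 slide that held both saline groups, with 1 array of each, the differences were 1.95 for Krt35, 1.5 for Krt36 and 1.75 for Krt32.

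The uterine lining is known for its simple keratins, and 3 of the 5 were called for E2 in neither genotype. Krt8 measured 5.54, 5.76 and 5.82 in EAAE E2, 5.65, 5.80 and 5.38 in EAAE saline, 4.98, 4.91 and 5.05 in WT E2, and 5.28, 5.07 and 5.04 in WT saline uteri. Its type I partner Krt18 measured 6.47, 6.85 and 6.80 in EAAE E2, 6.68, 6.94 and 6.72 in EAAE saline, 5.79, 5.70 and 5.83 in WT E2, and 6.06, 5.92 and 5.94 in WT saline uteri. Krt19, the smallest keratin, which lacks most of the tail, measured 4.91, 4.88 and 4.99 in EAAE E2, 4.80, 5.08 and 4.49 in EAAE saline, 4.0, 3.80 and 3.93 in WT E2, and 4.16, 3.80 and 4.04 in WT saline uteri. For all 3, every EAAE array was above every WT array, and E2 and saline arrays overlapped or nearly touched within a genotype.

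E2 minus saline in EAAE was 0.09 for Krt8, -0.07 for Krt18 and 0.14 for Krt19 (adjusted p = 0.747, 0.797 and 0.68), and in WT it was -0.15, -0.20 and -0.09 (adjusted p = 0.33, 0.169 and 0.635). Between genotypes under saline, Krt8 was higher in EAAE by a log2 difference of 0.48 ± 0.12 (SE, adjusted p = 0.0148), Krt18 by 0.81 ± 0.11 (SE, adjusted p = 5.57e-04) and Krt19 by 0.79 ± 0.15 (SE, adjusted p = 0.00281). After E2 these differences were 0.73, 0.94 and 1.01 (adjusted p = 5.11e-04, 5.03e-05 and 1.63e-04). With slide and position in the fit, the differences under saline were 0.70, 0.78 and 0.99 and none of the 3 was called, and those after E2 stayed called. The call of Krt8 under saline was also lost without WT saline 3 or EAAE saline 2.

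Of 15 markers of uterine epithelium, which include no keratin, 11 were higher and 1 was lower in EAAE than in WT under saline (background 13.7% and 15.8%). After E2, 7 were higher and 2 lower (background 33% and 24.8%), with Elf3 at -1.77 and Foxa2 at -1.31. Their summed level, as a multiple of the array's 75th percentile, was 58.3 to 74.9 in EAAE E2, 55.0 to 69.4 in EAAE saline, 39.4 to 41.5 in WT E2 and 34.2 to 38.9 in WT saline uteri. Foxa2, a transcription factor of uterine glands, was the marker that was lower under saline. After E2, 7 of 10 stromal markers were also higher and 6 of 8 smooth muscle markers lower in EAAE than in WT. Of 11 mesothelial markers, the 4 called higher under saline were Krt7, Krt8, Krt18 and Krt19 themselves, and the other 7 were not called, with log2 differences from -1.26 for Bnc1 to 0.18 for Wt1. The part of these markers in the keratin levels was not tested.

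Krt7, a simple keratin of glands and ducts, did respond. It measured 4.38, 4.28 and 4.33 in EAAE E2, 4.18, 4.34 and 4.07 in EAAE saline, 4.37, 4.32 and 4.12 in WT E2 and 3.70, 3.14 and 3.19 in WT saline uteri. The 3 WT saline arrays were the lowest of the 12. Krt7 rose in WT by a log2 difference of 0.92 ± 0.14 (SE, adjusted p = 4.17e-04), differed by 0.13 in EAAE (adjusted p = 0.686), and was higher in EAAE under saline by 0.85 (adjusted p = 0.00167) but by only 0.06 after E2 (adjusted p = 0.752). Its second probe gave 0.91 in WT (adjusted p = 0.00116 with every probe tested on its own).

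Krt20, a type I keratin of intestinal and urothelial surface cells, was the only keratin called after E2 in EAAE uteri. It measured 0.03, -0.64 and -0.56 in EAAE E2 uteri, against -1.87, -1.67 and -1.68 in EAAE saline uteri. In WT it measured -2.31, -3.01 and -2.79 after E2, against -2.11, -1.40 and -1.90 under saline. Every E2 mouse thus lay above every saline mouse in EAAE and below every saline mouse in WT. E2 and saline values of Krt20 come from different mice. Its log2 difference was 1.35 ± 0.24 in EAAE (SE, adjusted p = 0.0287) and -0.90 ± 0.24 in WT (SE, adjusted p = 0.00948), and the responses differed by 2.25 ± 0.33 (SE, adjusted p = 5.97e-04). The EAAE call was lost in 11 of 24 alternatives, among them those without EAAE saline 1, 2 or 3 or EAAE E2 1 or 2, and the log2 difference was 1.14 to 1.65 over all of them. The difference between the responses was called under every alternative run. Within the slides that held both EAAE groups, E2 minus saline was 1.69 and 1.14.

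**Figure D3:**
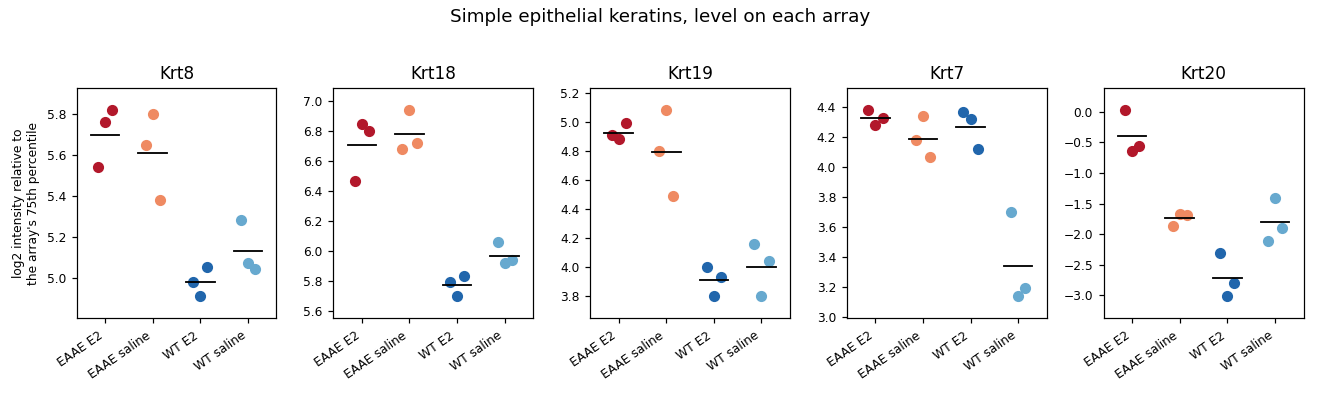
Log2 intensity relative to the array's 75th percentile (y axis, a scale of its own in each panel) of the 5 simple epithelial keratins on each of the 12 arrays by group (x axis), with group means of 3 mice as black lines. Krt8, Krt18 and Krt19 are higher in all EAAE arrays than in all WT arrays, Krt7 is lowest in WT saline, and Krt20 is highest in EAAE E2 and lowest in WT E2.

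Among stratified keratins, Krt4 stood apart. Krt4, a type II keratin of the upper layers of mucosal epithelia such as esophagus and vagina, measured -7.39, -6.29 and -7.36 in EAAE E2, -5.30, -6.42 and -7.08 in EAAE saline, -2.23, -1.58 and -2.53 in WT E2, and -6.38, -6.07 and -5.42 in WT saline uteri. It was above background on all 3 WT E2 arrays, on 1 of 3 arrays of each saline group and on none of EAAE E2. It rose in WT by a log2 difference of 3.84 ± 0.47 (SE, adjusted p = 8.6e-05), differed by -0.74 in EAAE (adjusted p = 0.464), and was at least 10.0-fold lower in EAAE E2 than in WT E2 uteri (adjusted p = 9.65e-06). Its usual type I partner Krt13 did not pass the test in WT by its brighter probe (log2 difference -0.45, adjusted p = 0.108). That probe measured -1.04, -0.92 and -1.02 in EAAE E2, -0.49, -0.62 and -1.32 in EAAE saline, -1.36, -1.53 and -1.71 in WT E2, and -0.73, -1.31 and -1.22 in WT saline uteri. The 2 probes of Krt13 disagreed: the dimmer one was lower after E2 in WT (log2 difference -1.73, adjusted p = 0.047) and lower in EAAE under saline (-2.75, adjusted p = 0.0105), each probe tested on its own, where the brighter one gave 0.27 (adjusted p = 0.368).

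The basal keratins Krt5 and Krt14, with Krt15 and Krt17, varied between mice of the same group. Krt5 measured -2.56, -4.79 and -3.0 in EAAE E2, 1.97, 1.07 and -3.16 in EAAE saline, -0.11, 0.17 and -1.98 in WT E2, and 1.43, 0.18 and 0.63 in WT saline uteri. The array EAAE saline 3 lay with the EAAE E2 arrays and far below the other EAAE saline arrays. Krt15, a basal type I keratin named here after its values were seen, had the same outlying array, at 3.14, 2.41 and -1.84 in EAAE saline uteri, against -0.64, -2.47 and -2.12 in EAAE E2 uteri. E2 minus saline in EAAE was -3.40 ± 1.18 for Krt5 (SE, adjusted p = 0.195) and -2.98 ± 1.10 for Krt15 (SE, adjusted p = 0.221). Without EAAE saline 3, it was -4.96 for Krt5 (adjusted p = 0.0332) and -4.52 for Krt15 (adjusted p = 0.022), and both were called lower. That array stood apart by the values of these same genes, so the 2 calls are no separate support for a fall. Without any other EAAE array, the values were -3.85 to -2.40 for Krt5 and -3.54 to -2.03 for Krt15, with no call. In WT, E2 minus saline was -1.39 for Krt5 (adjusted p = 0.357) and -1.41 for Krt15 (adjusted p = 0.314).

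The 9 markers of stratified cervical and vaginal epithelium include Krt4, Krt5, Krt13, Krt14, Krt15 and Krt6a, so their summed level restates these keratins and is no separate measure. The sums were 1.60, 1.04 and 1.18 times the array's 75th percentile in EAAE E2, 14.4, 8.59 and 1.05 in EAAE saline, 3.91, 4.46 and 1.65 in WT E2 and 10.2, 5.18 and 6.25 in WT saline uteri. Trp63, the transcription factor of basal stratified cells and the only tested marker of that list outside the keratins, measured -0.58, -1.23 and -2.83 in EAAE saline uteri, with the lowest of the 3 values in EAAE saline 3. It measured -2.34, -2.72 and -2.01 in EAAE E2, -2.85, -2.90 and -3.22 in WT E2, and -1.30, -1.38 and -1.72 in WT saline uteri. Trp63 fell in WT after E2 (log2 difference -1.52, adjusted p = 0.0179). Its WT E2 values lay below all EAAE E2 values, whereas those of Krt5 and Krt15 lay above. Of the 9 markers, 3 to 4 were on no array of a group above background, among them the keratin Krt6a, which was on none of the 12. How much of the tract below the uterine body each sample held is not given in the labels, and its part in these keratin values was not tested.

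Krt14 measured -3.80, -3.26 and -3.95 in EAAE E2, -2.24, -3.47 and -3.36 in EAAE saline, -1.59, -1.72 and -3.27 in WT E2, and -0.32, -1.49 and -0.69 in WT saline uteri. Krt14 was lower in EAAE than in WT given saline (log2 difference -2.19 ± 0.49, SE, adjusted p = 0.00773) and after E2 (-1.48 ± 0.49, SE, adjusted p = 0.0243), where the groups overlapped. The call after E2 was lost without WT E2 1, WT E2 2, EAAE E2 1 or EAAE E2 3, and both calls were lost with position or slide and position in the fit. It fell after E2 in WT by 1.36 on the log2 scale (adjusted p = 0.0412), a call lost in 12 of 24 alternatives, among them median and quantile scaling and those without WT saline 1, WT saline 3 or WT E2 3. Krt79, a keratin of the hair canal and sebaceous duct, measured -5.05, -5.62 and -5.80 in EAAE E2, -4.52, -4.69 and -6.05 in EAAE saline, -2.66, -2.21 and -2.71 in WT E2, and -3.18, -3.64 and -3.53 in WT saline uteri. It was lower in EAAE under saline by a log2 difference of -1.64 (adjusted p = 0.00734) and after E2 by -2.96 (adjusted p = 5.47e-05), and its difference in WT after E2, 0.92, did not pass the test (adjusted p = 0.0578). Among the remaining stratified keratins, Krt1, Krt2, Krt10, Krt16 and Krt17 had E2 minus saline values between -0.48 and 0.26 in WT and between -0.93 and 0.31 in EAAE, with no call.

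**Figure D4:**
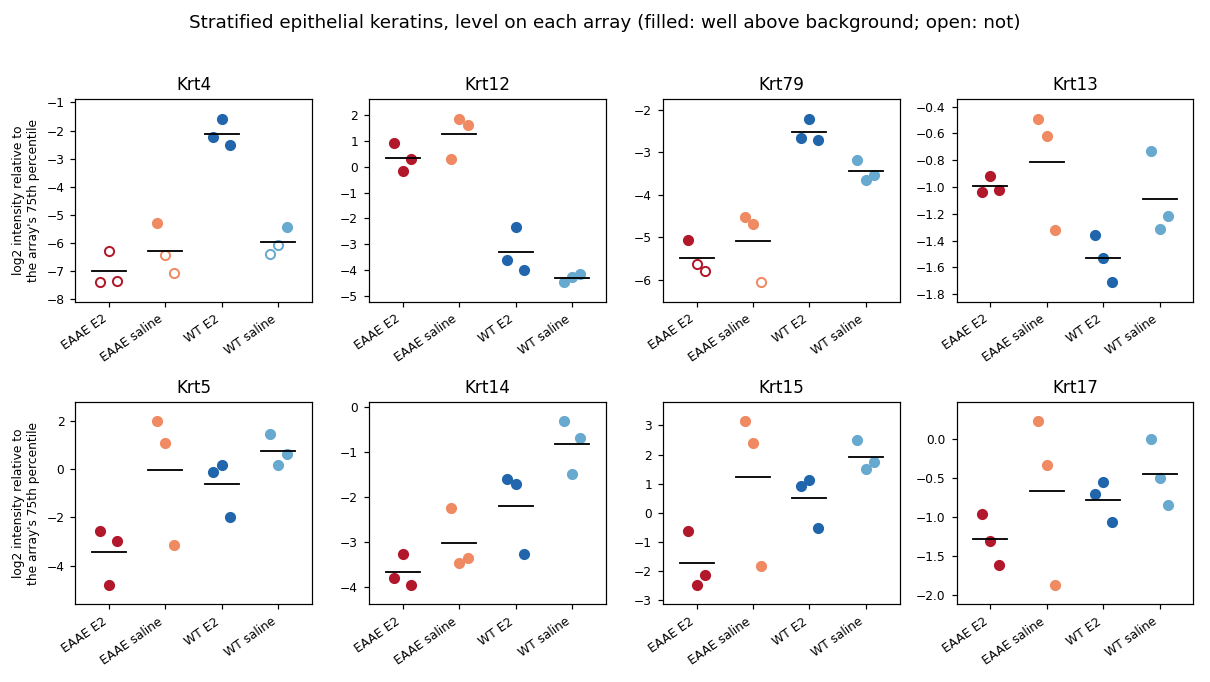
Log2 intensity relative to the array's 75th percentile (y axis, a scale of its own in each panel) of 8 stratified epithelial keratins on each of the 12 arrays by group (x axis). Filled points were well above background, open points were not, and black lines are group means of 3 mice. Krt4 is raised in WT E2, Krt12 is higher in every EAAE array than in every WT array, and Krt5 and Krt15 show 1 EAAE saline array among the low EAAE E2 values.

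The largest keratin difference between genotypes before hormone was in Krt12, the type I keratin of the corneal epithelium. It measured 0.90, -0.17 and 0.28 in EAAE E2, 0.29, 1.84 and 1.59 in EAAE saline, -3.61, -2.31 and -3.97 in WT E2, and -4.45, -4.27 and -4.14 in WT saline uteri. The EAAE and WT arrays were more than 2 log2 units apart. The log2 difference was 5.52 ± 0.48 under saline (SE, adjusted p = 2.95e-05) and 3.64 ± 0.48 after E2 (SE, adjusted p = 9.47e-05), and E2 minus saline was -0.90 in EAAE (adjusted p = 0.392) and 0.99 in WT (adjusted p = 0.116). This rests on 1 probe. The second Krt12 probe was above background on 1 WT E2 and 1 WT saline array and on no EAAE array, so the 2 probes do not bear out the same level. Between the groups under saline, Krt12 stayed called under every alternative run, including slide with position (5.01, adjusted p = 0.0308), and that after E2 was lost with slide and position in the fit (2.49, adjusted p = 0.0508).

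The other keratins called higher in EAAE under saline were Krt80, Krt10 and Krt2. Krt80, a type II keratin of many epithelia, measured -3.73, -3.45 and -2.95 in EAAE E2, -2.71, -2.58 and -2.20 in EAAE saline, -3.81, -3.88 and -3.76 in WT E2, and -3.96, -3.99 and -4.54 in WT saline uteri. It was higher in EAAE under saline by 1.67 ± 0.22 (SE, adjusted p = 3.3e-04), and its responses to E2, -0.88 in EAAE and 0.35 in WT, were not called while their difference was (-1.23, adjusted p = 0.0104). Krt10, a keratin of suprabasal epidermis, measured 1.69, 2.17 and 2.00 in EAAE saline, against 1.14, 1.15 and 1.39 in WT saline uteri (0.73, adjusted p = 0.0294). Krt2, of upper epidermal layers, measured -4.30, -3.56 and -3.56 in EAAE saline, against -5.67, -5.87 and -4.83 in WT saline uteri (1.65, adjusted p = 0.0413). The calls of Krt10 and Krt2 were lost with slide as a block and without WT saline 1, WT saline 2, EAAE saline 2 or EAAE saline 3.

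Krt23, a type I keratin of gland and gut epithelia, rose in WT after E2 and was lower in EAAE under both treatments. It measured -1.03, -0.79 and -1.02 in EAAE E2, -1.16, -0.88 and -0.77 in EAAE saline, 2.11, 2.43 and 1.48 in WT E2, and 0.55, 0.91 and 0.85 in WT saline uteri. No 2 groups overlapped except the EAAE groups with each other. It rose in WT by 1.24 ± 0.21 (SE, adjusted p = 8.2e-04), differed by -0.01 in EAAE (adjusted p = 0.988), and was lower in EAAE by -1.71 under saline (adjusted p = 2.67e-04) and by -2.95 after E2 (adjusted p = 1.39e-06), calls that stood under every alternative run. Krt88 and Krt75 passed the filter in 1 group each and were called in no comparison, with E2 minus saline of -0.84 and 1.12 in EAAE and of 0.27 and -0.34 in WT.

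In all, 11 keratins were higher and 4 lower in EAAE than in WT under saline (background 13.7% and 15.8%), and 9 were higher and 7 lower after E2 (background 33% and 24.8%). By class, the simple keratins were higher in 4 of 5 cases under saline (median log2 difference 0.79) and 4 of 5 after E2 (0.94), beside -0.02 and 0.10 over all genes. The hair keratins were mixed, with 3 higher and 1 lower of 7 under saline (median 0.45) and 3 higher and 3 lower after E2 (-0.57), as were the stratified ones, with 3 higher and 2 lower of 12 under saline (-0.21) and 2 higher and 3 lower after E2 (-0.20). The hair keratin called lower under saline was Krt85, which was above background on no array of either saline group. Krt85, Krt86, Krt87 and Krt4 passed the filter only through WT E2, and Krt2 only through EAAE saline. Krt32 passed only through the EAAE groups and Krt79 only through the WT groups. The genotype counts therefore depend on the filter. With the 17 keratins above background on all 12 arrays, 7 were higher and 2 lower under saline, and 7 and 2 after E2. Of the 15 calls under saline, 2 (Krt12 and Krt23) stayed with slide and position in the fit. Among the calls lost there, the value was 0.01 for Krt10 and 0.48 for Krt2, while it was 2.01 for Krt80, 0.87 for Krt7, -2.75 for Krt14 and -1.15 for Krt79. The 1 slide with both saline groups held 1 array of each and gave the same direction for all 15. For all 15 the saline groups did not overlap, so this direction was fixed and is no separate support. After E2, 13 of 16 stayed, and all 3 slides, each with 1 array of either E2 group, gave the same direction for all 16. That too was fixed for all but Krt14, the only one of the 16 whose groups overlapped. The comparisons with E2 and saline share arrays.

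**Figure D5:**
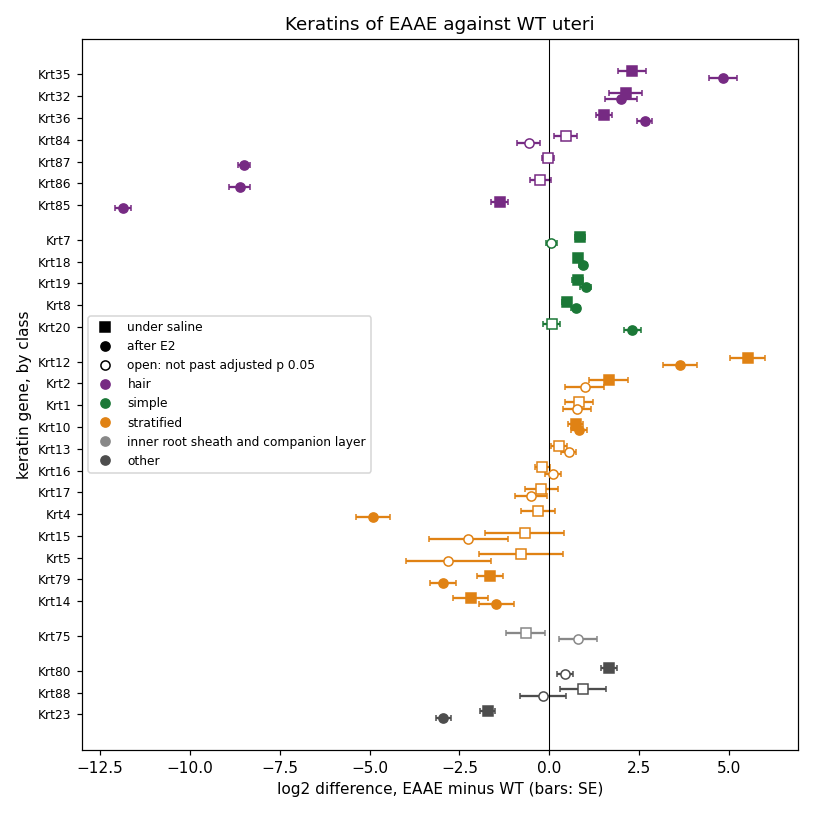
Log2 difference, EAAE minus WT (x axis, points with SE bars), of the 28 keratins tested (y axis, by class), under saline (squares) and after E2 (circles). Filled symbols have an adjusted p under 0.05. Krt85, Krt86 and Krt87 lie below -8 after E2, Krt12 lies above 5 under saline, and Krt8, Krt18 and Krt19 are on the right of 0 in both.

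Genes that work with keratins gave no uniform picture. Of 41 hair keratin-associated protein genes (Krtap), the partners of hair keratins in the shaft, 14 were tested. In WT after E2, 2 rose and 3 fell (median log2 difference -0.08), beside 19.5% higher and 29.9% lower over all tested genes. In EAAE 0 were called, beside 0.689% higher and 0.715% lower over all tested genes. Krtap17-1 measured -3.21, -3.72 and -3.99 in WT E2, against -1.49, -1.10 and -1.38 in WT saline uteri, and was above background on no EAAE array, at least 18.6-fold lower there than in WT given saline (adjusted p = 2.07e-05). Krtap21-1 was above background on no WT E2 array and at least 3.3-fold lower after E2 in WT (adjusted p = 0.00128). It passed the filter only through the WT saline group, where it was high. The genes that rose were Krtap6-3 (0.54, adjusted p = 3.81e-04) and Krtap7-1 (0.88, adjusted p = 0.0103). None of these moved on the scale of Krt85.

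Among 30 cornified envelope and hair shaft genes, 15 were tested. Of these, 4 rose and 2 fell in WT (background 19.5% and 29.9%) and 0 were called in EAAE (background 0.689% and 0.715%). Padi1 and Padi3, peptidylarginine deiminases that citrullinate keratins and trichohyalin, were among those that rose. Padi1 measured -0.97, -0.80 and -0.85 in EAAE E2, -0.50, -0.08 and -1.19 in EAAE saline, 4.15, 4.59 and 4.24 in WT E2, and 0.58, 0.35 and 0.40 in WT saline uteri (3.89 ± 0.23 in WT, SE, adjusted p = 8.45e-07; -0.28 in EAAE, adjusted p = 0.584). Padi3 was above background on the 3 WT E2 arrays and on no other array, at least 5.4-fold higher after E2 in WT (adjusted p = 1.12e-04). Padi3 thus passed the filter only through the group where it was high, so the count of risers in this list depends on the filter. Tchh, trichohyalin of the inner root sheath, went the other way: -2.47, -2.51 and -2.76 in WT E2, against -0.97, -0.86 and -0.75 in WT saline uteri (-1.72, adjusted p = 1.75e-05).

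Of 13 tested desmosome and keratin anchoring genes, 3 rose (Perp 1.43, Jup 0.94 and Dsc2 1.60 on the log2 scale) and 2 fell (Dsp -0.46, with 0.45 by another of its probes, and Pkp4 -0.24) in WT, and 0 were called in EAAE. These genes encode the junctions on which keratin filaments end. For this list and the 2 below, the background was 19.5% higher and 29.9% lower in WT, and 0.689% and 0.715% in EAAE. Of 12 tested hair keratin regulators, 1 rose and 5 fell in WT, and 1 rose in EAAE. Prdm1 was the one called in both. It measured 2.31, 2.46 and 1.80 in EAAE E2, against 0.93, 1.11 and 1.17 in EAAE saline uteri (1.12, adjusted p = 0.0132). In WT it measured -1.0, -1.13 and -1.03 after E2, against 0.51, 0.86 and 0.73 under saline (-1.75, adjusted p = 1.26e-05). Msx2, a homeobox factor of hair matrix named here after its values were seen, measured -2.32, -2.33 and -3.57 in EAAE saline, against 0.14, 0.17 and -0.37 in WT saline uteri (-2.72, adjusted p = 2.5e-04). Of 11 other intermediate filament genes tested, 2 rose and 5 fell in WT, with nestin (Nes) at 1.85 and vimentin (Vim) at -0.74.

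Promoters were searched for letters that steroid receptor and core promoter elements use, over 250 bases before to 50 after the gene start (RefSeq sequences, build GRCm38.p6). Of the 28 keratins tested, 16 had a promoter in the table (17 promoters, 2 of them of Krt13), and Krt85, Krt86, Krt87, Krt4 and Krt35 were not among them. The palindromic estrogen response element GGTCANNNTGACC was in 0 of the 17 promoters, beside 0.07% of all 32851. A single arm of it, GGTCA, on either strand, was in 9 of 17, beside 40.5% of all. The AP-1 site TGANTCA was in 2, both of Krt13, beside 7.81%, and the TATA box TATAAA in 6, beside 13.6%. A palindrome also counts as GGTCA. A match describes letters only and shows no binding.

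The 2 promoters shown are those of the keratin called after E2 in EAAE uteri and of the one with the largest genotype difference under saline, both on chromosome 11. Each runs from 60 bases before to 40 after the start, on the minus strand, with the TATA box and GGTCA in capitals; Krt12 lies at chr11:99422220-99422319 and Krt20 at chr11:99438114-99438213.
Krt12: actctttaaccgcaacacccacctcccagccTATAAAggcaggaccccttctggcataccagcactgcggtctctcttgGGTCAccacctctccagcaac
Krt20: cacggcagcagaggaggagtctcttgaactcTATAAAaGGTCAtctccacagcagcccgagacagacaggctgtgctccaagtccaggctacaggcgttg
In both, the TATA box begins 29 bases before the start. GGTCA begins 22 bases before the start in Krt20 and 19 bases after it in Krt12.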

How the data were processed

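Uterine RNA of 12 mice was hybridised to single-colour Agilent arrays, labelled with Cy3 from 500 ng per the labels' protocols. Spot intensities were extracted and background-subtracted with Agilent Feature Extraction 9.5.3.1 per the file headers (9.5 per the submitters' processing notes) and deposited as processed signals. No replicates were pooled. Each array held 45018 spots, 1639 of them controls, with a 75th percentile of 1398.0 to 1941.8, and the number of arrays limits the precision.

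Here, outlier spots and controls were left out, log2 intensity was taken relative to each array's 75th percentile, and spots of a probe were averaged. Probes well above background on every array of at least 1 group were kept (29017 of 41174), and the probe with the highest mean stood for its gene. limma 3.58.1 (R 4.3.3) was fitted over all 12 arrays and 19304 genes, with Benjamini-Hochberg adjustment and a threshold of 0.05. Where a probe was above background on no array of a group, a bound is given against the higher of that probe's signal and the lowest signal among probes well above background. That lowest signal is no strict detection limit, so the bounds are approximate. On EAAE saline 3 it was -5.61, while Krt87, at -5.56, was not well above background. The adjusted p beside a bound belongs to the fitted difference. On simulated data for E2 against saline in WT (19304 genes), 77 of 100 genes changed by a log2 of 1 and 93 of 100 changed by 2 were recovered. Far fewer genes were changed there than the 3756 higher and 5775 lower called in WT. These shares may therefore not hold for the measured data.

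Names came from accessions, symbols or older symbols in a RefSeq table (assembly GRCm38.p6, used for names only), and otherwise from the files: 22951 probes by their listed accession, 124 by another accession, 6582 by symbol, 3077 by an older symbol, 8155 kept the file's name and 285 had none. Keratins given array by array were, per class, up to 6 with the smallest p for E2 in WT, any called for E2 in EAAE or for genotype under saline, and Krt5, Krt7, Krt8, Krt14, Krt18 and Krt19; from other lists, up to 6 with the smallest p. The members, classes and lists were chosen with earlier results of these data known. Alternatives covered scaling, background, filter, probe choice, slide, position, replicate block, arrays fitted and leaving out each array.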

Additional observations from a re-analysis of the deposited data

Results flagged for a closer look

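The response to E2 differed between the genotypes for 10 keratins by the interaction contrast of the limma fit, given as the response in EAAE minus that in WT on the log2 scale. The difference was -10.48 for Krt85, -8.44 for Krt87 and -8.36 for Krt86, and the probes of Krt86 and Krt87 overlap. It was -4.59 for Krt4, -1.25 for Krt23, -1.23 for Krt80 and -0.79 for Krt7. It was positive, at 2.52 for Krt35, 2.25 for Krt20 and 1.13 for Krt36. The value of Krt85 is a fitted one with no EAAE or WT saline array above background, so its size depends on the dim signals. That of Krt4 does too, with 0 of 3 EAAE E2 arrays and 1 of 3 arrays of each saline group above background, and it was -4.99 to -2.35 over the alternatives.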

How the results depend on the processing

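Of 53 keratin calls, 29 stood under every alternative tried, 24 were lost under at least 1, and 0 reversed. Requiring a probe to be above background on all 12 arrays left fewer keratins to test: 5 were called for E2 in WT (11 in the reported fit), 5 for the difference between the responses (10), 9 for EAAE against WT under saline (15) and 9 after E2 (16). With slide and position both in the fit, 7 were called for E2 in WT and 2 under saline; the cause was not tested. For E2 in EAAE, where 1 was called, normexp with quantile scaling called 2, and 0 were called with no filter, slide as a block, position, slide with position, the replicate block, or only the arrays compared; the cause was not tested. Leaving out each array in turn gave 8 to 12 calls for E2 in WT, 0 to 2 for E2 in EAAE, 10 to 13 for the difference, 12 to 16 under saline and 15 to 19 after E2. With the replicate number as a block the calls were 12, 0, 11, 14 and 18 in that order, and samples with the same number deviated with r of -0.281 to 0.275 over 18 pairs, against -0.356 to 0.353 over 36 other pairs, so the number was not taken as a pairing. Keratins near background, such as Krt2, Krt32 and Krt85 outside WT E2, are limited by their signal.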
